A study of Mus musculus with 4 samples.

Results

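The transcripts described here are those of the transforming growth factor beta (TGF-beta) pathway in mouse liver: the ligands Tgfb1, Tgfb2 and Tgfb3, the receptors Tgfbr1, Tgfbr2 and Tgfbr3, the signal transducers Smad2, Smad3 and Smad4, and the latent binding protein gene Ltbp1. They were taken by symbol from the deposited expression table, and each of the 10 symbols matched 1 of its 24138 rows. The table covers livers 1 to 4, from male C57BL/6J mice aged 18 weeks that had all received the FAT-MASH diet and resolvin D1 (RvD1). The diet models metabolic dysfunction-associated steatohepatitis (MASH), in which a fatty liver becomes inflamed and scarred, and RvD1 is a lipid mediator that helps inflammation resolve. The dose and timing of RvD1 are not given in the sources used here. All 4 livers form 1 group, so levels and their spread between livers are described, and the values do not show what RvD1 or the diet changed. The labels number the livers but do not say more of the animals, so the spread may hold technical as well as animal differences.

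TGF-beta is secreted as a latent complex in which the ligand is held by its own propeptide and, in the matrix, by a latent TGF-beta binding protein (Ltbp). Once released, it binds the type II receptor encoded by Tgfbr2, which recruits and activates the type I receptor encoded by Tgfbr1. This receptor phosphorylates Smad2 and Smad3, which enter the nucleus with Smad4. In the liver the pathway is known as a main driver of hepatic stellate cell activation and of the collagen deposition that makes up fibrosis.

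Levels are in FPKM, fragments scaled by transcript length and by the mapped fragments of the library, so genes of different length can be compared within a liver. Spread and differences were taken on log2(FPKM + 1), which compresses differences between low values. The estimated depth was 17.8 to 20.1 M fragments (M, mega) per liver. A gene was called expressed when it averaged 1 FPKM or more, which held for 10541 rows, or 43.7% of the table. Of the hepatocyte markers, 7 of 8 were expressed. Alb, which encodes albumin, was listed at 0 in all 4 livers although Apoa1 averaged 12970 FPKM. Serpina1c was listed at 0 in livers 3 and 4, against 1689 and 1591 FPKM in livers 1 and 2. A listed 0 is therefore not read here as absence of a transcript. Stellate and sinusoidal endothelial markers were expressed in 8 of 8 cases each, and macrophage markers in 7 of 8. In whole liver, fewer cells of a type and less RNA per cell cannot be told apart.

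The 3 promoters below are shown because they belong to the most abundant ligand gene (Tgfb1), the least abundant ligand gene (Tgfb2) and the receptor gene with the highest level of all 10 (Tgfbr2). Each is the run of 250 bases upstream of the RefSeq start site, 5′ to 3′ on the gene's strand, from RefSeq in build GRCm38.p6. The Tgfb1 stretch is chr7:25686752-25687001 on the + strand, the Tgfb2 stretch chr1:186705990-186706239 on the - strand and the Tgfbr2 stretch chr9:116175364-116175613 on the - strand. Capitals mark matches, on either strand, to the TATA box TATAAA, the GC box GGGCGG, the cAMP response element core TGACG and the Smad-binding letters CAGAC. No listed motif contains another.
Tgfb1: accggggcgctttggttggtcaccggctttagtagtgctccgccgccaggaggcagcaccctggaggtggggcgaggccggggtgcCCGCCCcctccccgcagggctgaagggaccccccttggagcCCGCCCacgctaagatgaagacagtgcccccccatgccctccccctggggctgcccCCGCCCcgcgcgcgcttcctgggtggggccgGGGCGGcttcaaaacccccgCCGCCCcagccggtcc
Tgfb2: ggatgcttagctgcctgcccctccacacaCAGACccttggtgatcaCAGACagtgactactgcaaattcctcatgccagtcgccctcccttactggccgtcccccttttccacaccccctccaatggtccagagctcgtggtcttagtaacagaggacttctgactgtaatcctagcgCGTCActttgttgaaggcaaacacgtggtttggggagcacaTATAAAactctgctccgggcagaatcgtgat
Tgfbr2: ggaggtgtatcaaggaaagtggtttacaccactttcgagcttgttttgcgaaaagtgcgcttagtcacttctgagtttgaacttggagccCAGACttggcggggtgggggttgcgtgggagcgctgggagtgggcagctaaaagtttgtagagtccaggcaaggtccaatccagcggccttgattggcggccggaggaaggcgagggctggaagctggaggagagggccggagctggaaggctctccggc

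The Tgfb1 stretch was 75.2% G and C, with 21 CpG pairs and 5 GC boxes, and held none of the other listed motifs. The Tgfb2 stretch was 53.6% G and C, with 8 CpG pairs, and held 1 TATA box 31 to 26 bases before the start, 1 TGACG core (as its reverse complement CGTCA) and 2 CAGAC matches. The Tgfbr2 stretch was 58.4% G and C, with 12 CpG pairs and 1 CAGAC match. Among 32851 RefSeq promoter stretches of the same length, the median was 52.4% G and C, a TATA box was present in 12.4%, a GC box in 32.7%, a TGACG core in 17.8% and a CAGAC match in 42.2%. These matches describe the letters only. Of the 10 genes, 6 had a promoter entry in the RefSeq table used.

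Tgfb1 was the dominant ligand transcript in every liver. Tgfb1 (XLOC_018543, chromosome 7, 25687002 to 25704996) encodes the ligand best known for driving fibrosis, and was at 7.21, 9.81, 8.65 and 10.6 FPKM in livers 1 to 4, with a mean of 9.06 ± 1.47 FPKM (SD, n = 4). Liver 4 was highest and liver 1 lowest, a 1.47-fold range. When the values were rescaled to the same total in each liver, liver 2 was highest in place of liver 4, and liver 1 was lowest as before.

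Tgfb3 (XLOC_004948, chromosome 12, 86056743 to 86079041), which encodes a ligand known from palate and lung development, was at 1.58, 1.69, 1.60 and 0.860 FPKM in livers 1 to 4, with a mean of 1.43 ± 0.384 FPKM (SD, n = 4). Livers 1 to 3 were close together and liver 4 stood below them, at about 48.8 fragments against 98.0 to 103 fragments in the others. The counting interval of liver 4 (95% Poisson, 0.636 to 1.14 FPKM) did not overlap those of livers 1 to 3, whose lowest bound was 1.28 FPKM. Counting intervals here rest on the estimated depth and cover counting error only. Tgfb3 in liver 4 and Smad3 in liver 1 were the 2 of 10 genes with a liver standing apart by Dixon's gap ratio, which marked 5.46% of expressed genes on log2(FPKM + 1) and 5.64% on FPKM.

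Tgfb2 (XLOC_001292, chromosome 1, 186623186 to 186705992), which encodes a ligand that binds the type II receptor poorly without the coreceptor Tgfbr3, was at 0.664, 0.768, 0.520 and 0.588 FPKM in livers 1 to 4. Its mean was 0.635 ± 0.106 FPKM (SD, n = 4), and it was the single gene of the 10 below the expressed level of 1 FPKM. These values correspond to about 32.9 to 72.5 fragments per liver, depending on the transcript length assumed, and their counting intervals overlapped between livers.

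Of the summed FPKM of the 3 ligands, Tgfb1 contributed 76.3%, 80.0%, 80.3% and 87.9% in livers 1 to 4, a mean of 81.1 ± 4.90% (SD, n = 4). Tgfb3 contributed 16.7%, 13.8%, 14.8% and 7.16%, and Tgfb2 between 4.83% and 7.02%. Liver 4 thus had the highest Tgfb1 share and the lowest Tgfb3 share. The ratio of Tgfb1 to Tgfb3 was 12.3 in liver 4 and between 4.57 and 5.80 in the other livers. The ligand ranges did not overlap, with Tgfb1 above Tgfb3 and Tgfb3 above Tgfb2 in 4 of 4 livers.

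**Figure D1:**
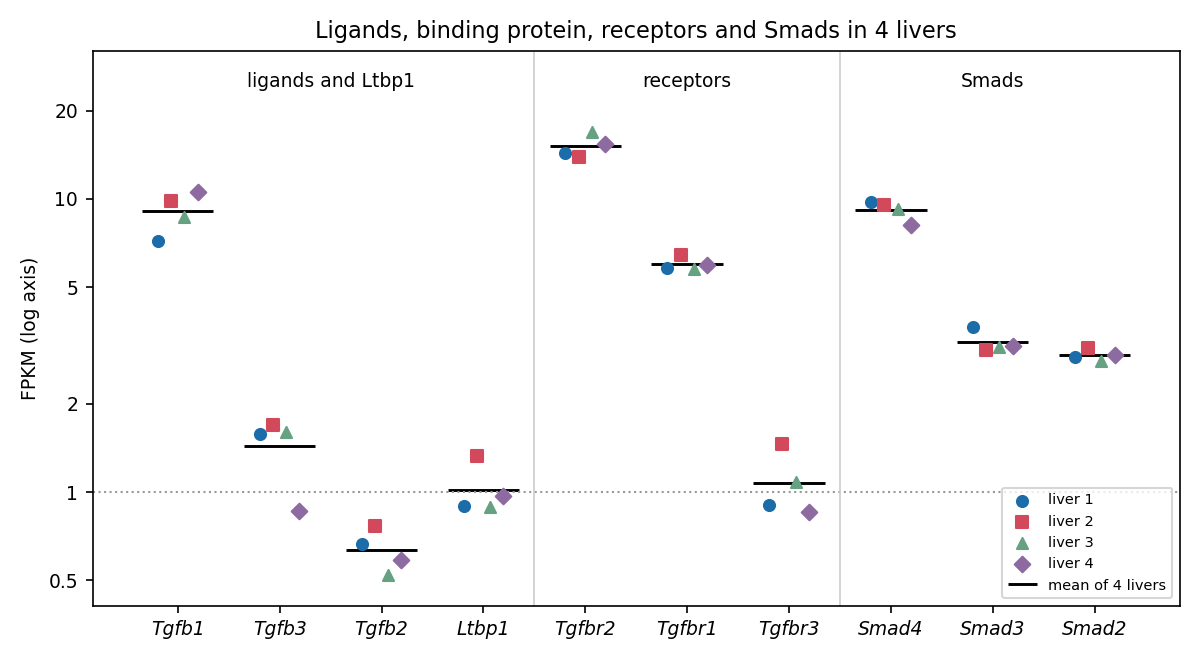
FPKM (log axis) of the 10 genes in each of the 4 livers, with points for livers, a bar for the mean and a dotted line at 1 FPKM. Tgfbr2 was highest at 13.9 to 16.9 FPKM, Tgfb2 lowest at 0.520 to 0.768 FPKM, and liver 4 lay apart for Tgfb3.

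Among the receptors, Tgfbr2 was the most abundant and Tgfbr3 the least. Tgfbr2 (XLOC_022939, chromosome 9, 116087695 to 116175363), the ligand-binding type II receptor kinase gene, was at 14.4, 13.9, 16.9 and 15.4 FPKM in livers 1 to 4, with a mean of 15.2 ± 1.29 FPKM (SD, n = 4). It was the highest of the 10 genes in each liver, above 67.3% of expressed genes. Liver 3 was highest and liver 2 lowest, a 1.21-fold range.

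Tgfbr1 (XLOC_014342, chromosome 4, 47353305 to 47414924), the gene of the type I receptor kinase that phosphorylates Smads, was at 5.83, 6.42, 5.77 and 5.97 FPKM in livers 1 to 4, with a mean of 6.00 ± 0.295 FPKM (SD, n = 4). Its values differed by 1.11-fold at most, and its SD of 0.06 on the log2(FPKM + 1) scale was smaller than that of all but 5.16% of expressed genes. The ratio of Tgfbr2 to Tgfbr1 was 2.47, 2.17, 2.92 and 2.58 in livers 1 to 4.

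Tgfbr3 (XLOC_016685, chromosome 5, 107106570 to 107289595) encodes betaglycan, a coreceptor that presents ligand, TGF-beta 2 in particular, to the type II receptor. It was at 0.903, 1.46, 1.08 and 0.854 FPKM in livers 1 to 4, with a mean of 1.07 ± 0.274 FPKM (SD, n = 4). Liver 2 was highest, 1.71-fold above liver 4, and the counting interval of liver 2 (1.24 to 1.70 FPKM) lay above that of liver 4 (0.686 to 1.05 FPKM). Without liver 2 the mean of Tgfbr3 was 0.946 FPKM. Tgfbr3 made up 6.69% of the summed receptor FPKM in liver 2 and 3.84% to 4.56% in the other livers, whereas Tgfbr2 made up 68.1 ± 3.07% (SD, n = 4).

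Smad4 exceeded both receptor-regulated Smads, which were nearly equal to each other. Smad4 (XLOC_010199, chromosome 18), the common partner that joins activated Smads of the TGF-beta and bone morphogenetic protein (BMP) branches, was at 9.76, 9.52, 9.23 and 8.11 FPKM in livers 1 to 4, with a mean of 9.16 ± 0.728 FPKM (SD, n = 4). Liver 4 was lowest. Its counting interval overlapped that of liver 1, the highest, with the shortest annotated transcript assumed (upper bound 9.10 against lower bound 8.83 FPKM) and not with the longest (8.89 against 9.01 FPKM).

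Smad3 (XLOC_022700, chromosome 9, 63646767 to 63757994), the receptor-regulated Smad that binds DNA directly and is linked to collagen gene transcription, was at 3.66, 3.06, 3.12 and 3.15 FPKM in livers 1 to 4. Its mean was 3.24 ± 0.277 FPKM (SD, n = 4). Liver 1 was above the other 3, which lay within 3.06 to 3.15 FPKM. The counting interval of liver 1 (3.29 to 4.05 FPKM) overlapped that of liver 2 (2.71 to 3.43 FPKM).

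Smad2 (XLOC_009958, chromosome 18), the other receptor-regulated Smad of the TGF-beta and activin branch, was at 2.88, 3.10, 2.81 and 2.94 FPKM in livers 1 to 4, with a mean of 2.93 ± 0.12 FPKM (SD, n = 4). Its SD of 0.05 on the log2(FPKM + 1) scale was the smallest of the 10 genes. Smad3 exceeded Smad2 in 3 of 4 livers, with ratios of 1.27, 0.985, 1.11 and 1.07 in livers 1 to 4, and their ranges overlapped. Smad4 exceeded the sum of Smad2 and Smad3 by a ratio of 1.48 ± 0.104 (SD, n = 4), and made up 59.7 ± 1.74% (SD, n = 4) of the 3 Smads.

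All 9 pairs within the ligands, receptors and Smads were compared as differences of log2(FPKM + 1) paired by liver. In 8 of the pairs the higher gene was higher in 4 of 4 livers and the ranges did not overlap. The differences were from 0.56 for Tgfb3 over Tgfb2 to 2.97 for Tgfbr2 over Tgfbr3. The exact two-sided permutation test of these 8 pairs gave p = 0.13 each, the smallest that 4 livers allow, and 0.141 after adjustment over the 9 pairs, so that no pair could pass 0.05. The exception was Smad3 over Smad2, with a difference of 0.11 ± 0.12 (SD, n = 4; exact permutation test, p = 0.25, adjusted p = 0.25).

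**Figure D2:**
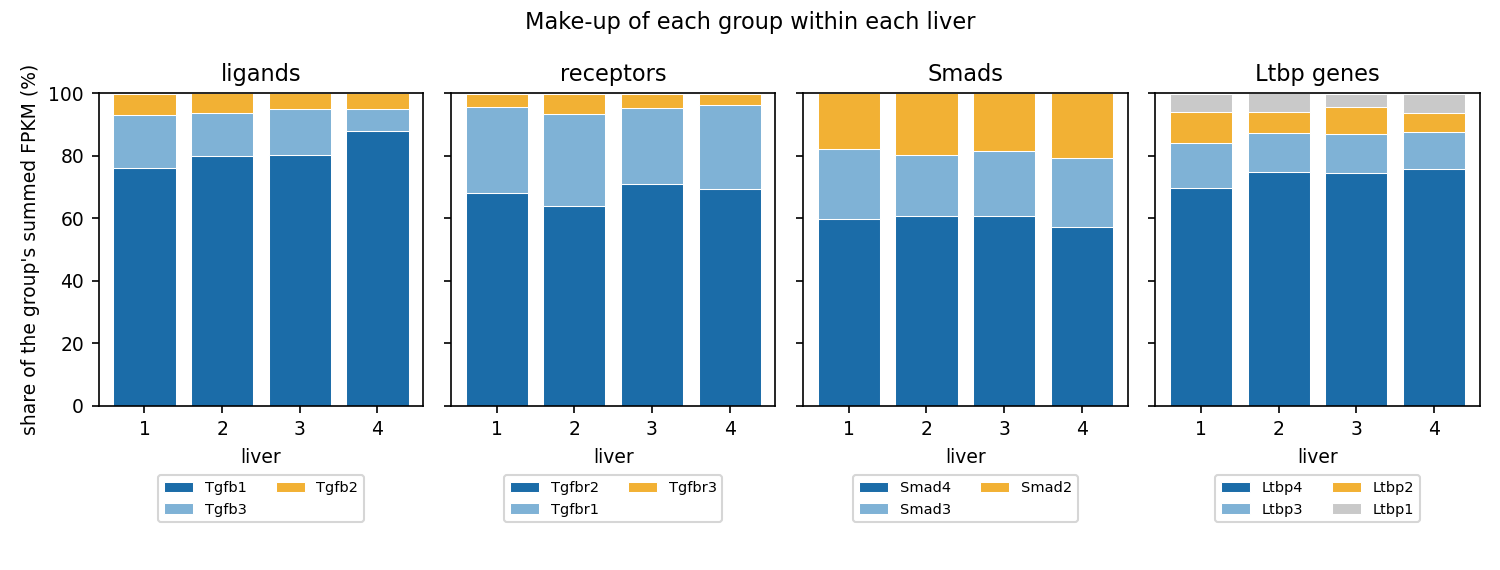
Stacked bars of each gene's share of its group's summed FPKM (%) in livers 1 to 4, for the ligands, receptors, Smads and Ltbp genes. Tgfb1 took 76.3% to 87.9% of the ligands and Ltbp4 69.7% to 75.8% of the Ltbp genes.

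Ltbp1 (XLOC_009051, chromosome 17, 75005529 to 75392967), which encodes a matrix protein that anchors latent TGF-beta, was at 0.897, 1.32, 0.891 and 0.967 FPKM in livers 1 to 4. Its mean was 1.02 ± 0.206 FPKM (SD, n = 4), so it lay close to the expressed level, and at 0.918 FPKM without liver 2. Liver 2 was highest and the other livers were within 0.891 to 0.967 FPKM. The counting interval of liver 2 overlapped those of the other livers when the shortest annotated transcript was assumed, and with the longest that of liver 4 alone.

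Ltbp1 was the lowest of the 4 Ltbp genes in 3 livers and stood just above Ltbp2 in liver 4. Ltbp4, whose product binds TGF-beta 1 weakly and serves elastic fibre assembly, was at 10.7, 16.7, 15.0 and 11.6 FPKM in livers 1 to 4. It exceeded Ltbp1 by a ratio of 13.3 ± 2.35 (SD, n = 4). Ltbp3 had 2.33 ± 0.400 FPKM and Ltbp2, whose product does not bind latent TGF-beta, had 1.42 ± 0.366 FPKM (each SD, n = 4). Ltbp1 contributed 5.63 ± 0.835% (SD, n = 4) of the summed Ltbp values.

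In the order of mean levels, Tgfbr2 came first, followed by Smad4, Tgfb1, Tgfbr1, Smad3, Smad2, Tgfb3, Tgfbr3, Ltbp1 and Tgfb2. The neighbours Smad4 and Tgfb1 overlapped, each being the higher in 2 livers. The ranges also overlapped for Smad3 and Smad2, for Tgfb3 and Tgfbr3, and for Tgfbr3 and Ltbp1. The remaining neighbours did not overlap.

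The 9 expressed genes varied between livers by a median SD of 0.11 on the log2(FPKM + 1) scale, against 0.16 over all expressed genes. An SD above that value of all genes was found for 3 of the 9, namely Tgfb3 (0.25), Tgfb1 (0.22) and Tgfbr3 (0.18), against 50.0% of all expressed genes. Tgfb1 and Tgfb3 had the largest SD of the 10 genes and deviated in opposite directions in livers 1, 3 and 4. In liver 4 Tgfb1 was 0.21 above its mean and Tgfb3 was at -0.37, while in liver 1 Tgfb1 was at -0.28 and Tgfb3 at 0.10. With values rescaled to the same total, the median SD was 0.17 for both the 9 genes and all genes.

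**Figure D3:**
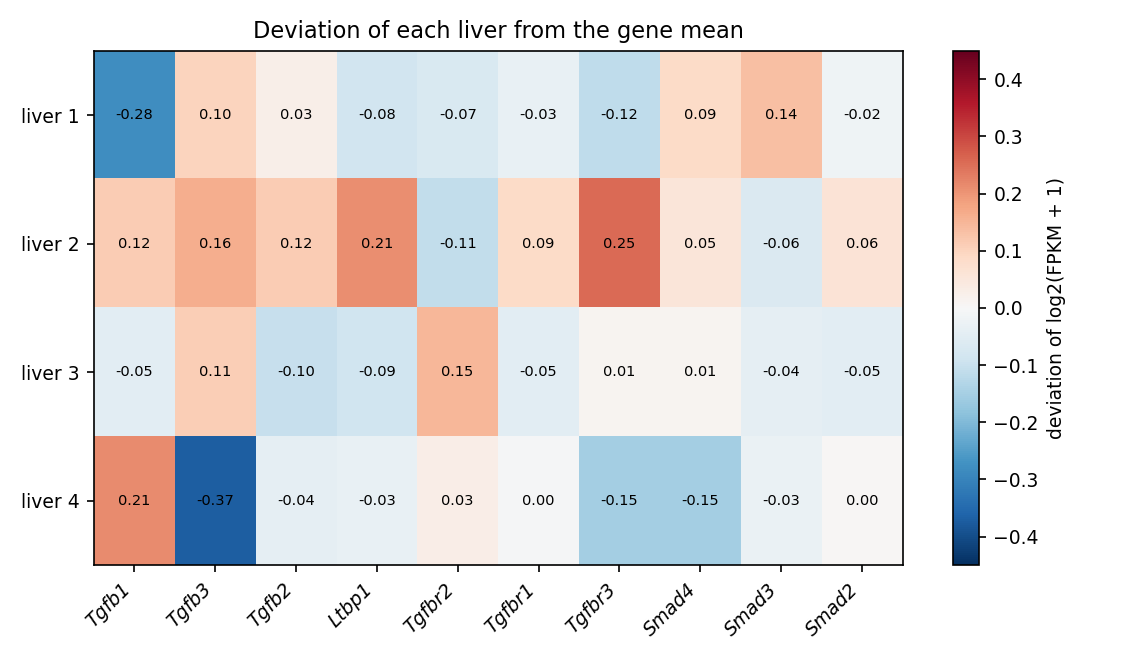
Deviation of log2(FPKM + 1) from the gene mean, by gene (columns) and liver (rows), red above and blue below the mean. The largest are -0.37 for Tgfb3 in liver 4 and -0.28 for Tgfb1 in liver 1.

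Liver 2 held the highest value of 6 of the 10 genes, namely Tgfb2, Tgfb3, Tgfbr1, Tgfbr3, Smad2 and Ltbp1, against 22.0% of all expressed genes and 24.8% of those averaging between 0.5 and 20 FPKM. With values rescaled to the same total it was 7 genes, against 28.4%. For each of the 6 the counting interval of liver 2 overlapped that of the next highest liver, so the order of these 2 livers was not resolved at this depth. Liver 1 held the highest value of Smad3 and Smad4 (17.9% of expressed genes), liver 3 that of Tgfbr2 (26.8%) and liver 4 that of Tgfb1 (33.3%). As deposited, the lowest value was in liver 4 for Tgfb3, Tgfbr3 and Smad4 (18.1% of expressed genes), in liver 3 for Tgfb2, Tgfbr1, Smad2 and Ltbp1 (31.4%), in liver 2 for Tgfbr2 and Smad3 (29.9%), and in liver 1 for Tgfb1 (20.7%). These lowest livers depended on the scaling: liver 4 was lowest for 6 of the 10 genes with median-ratio scaling (25.1% of expressed genes) and for 7 rescaled to the same total (33.0%), and liver 3 for 2 (29.1%) and 1 (25.3%). Tgfb3, Tgfbr3 and Smad4 were lowest in liver 4, Tgfb2 in liver 3, Tgfbr2 in liver 2 and Tgfb1 in liver 1 under each of the 3 scalings.

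Cell type markers differed between the same livers. The summed FPKM of the 8 stellate markers was 58.7, 72.5, 55.2 and 53.4 in livers 1 to 4. Liver 2 was thus highest and liver 4 lowest, as for Tgfbr3 and Tgfb3. The cholangiocyte, T and NK cell and neutrophil marker sums had the same highest and lowest livers. Of the single stellate markers 4 of 8 were highest in liver 2, against 22.0% of all expressed genes. Colec11 was the largest part of the stellate sum. The 8 sinusoidal endothelial markers summed to 50.5, 69.1, 56.6 and 63.1 FPKM, with liver 1 lowest as for Tgfb1 and liver 2 highest. Of the single endothelial markers 6 of 8 were highest in liver 2, against 22.0% of all expressed genes. The largest part of this sum was Clec4g, which was highest in liver 4. The 8 macrophage markers summed to 85.0, 99.2, 78.9 and 107 FPKM, with liver 3 lowest and liver 4 highest as for Tgfb1, and like Tgfb1 they were highest in liver 2 when rescaled to the same total. The 8 hepatocyte markers summed to 37063, 33276, 31251 and 42602 FPKM, with liver 4 highest. Alb added nothing to these sums, and Serpina1c added to livers 1 and 2 only. Of the single markers 4 of 8 hepatocyte and 5 of 8 macrophage markers were highest in liver 4 as deposited, against 33.3% of all expressed genes. The B cell and adipocyte marker sums were also highest in liver 4, the latter almost entirely from Cfd. The 6 platelet markers, whose cells store TGF-beta 1 protein, summed to 6.38, 11.9, 5.37 and 9.66 FPKM, most of it from Pf4, and the 4 neutrophil markers found summed to 9.97, 17.9, 10.5 and 7.61 FPKM. The part of these cells in the levels of the 10 genes was not tested.

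The wider pathway was examined with lists grouped by role, which were chosen with earlier results of these data known. They held 63 genes, all in the table. Of these 52 were expressed, against 43.7% of all rows. Genes of ligand storage and activation were expressed in 10 of 14 cases. Furin, which encodes the protease that cleaves the TGF-beta propeptide, had 57.4 ± 6.29 FPKM (SD, n = 4). Of the integrin chains, Itgb1 had 44.7 ± 6.06 FPKM, Itgb5 43.3 ± 4.37 FPKM and Itgav 3.63 ± 0.625 FPKM (each SD, n = 4).

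The integrin beta chains that release latent TGF-beta most directly when paired with Itgav were low. Itgb6, an epithelial chain, was at 0.128, 0.160, 0.0441 and 0.226 FPKM in livers 1 to 4, and Itgb8 at 0.314, 0.545, 0.208 and 0.148 FPKM. Itgb3 was at 0.317, 0.691, 0.272 and 0.217 FPKM. The cell-surface anchors of latent TGF-beta were above 1 FPKM, with Lrrc32 (also known as GARP) at 5.08 ± 1.09 FPKM and Nrros at 2.23 ± 0.518 FPKM (each SD, n = 4). Thbs1, encoding a matrix protein that can activate the latent complex, was at 0.649 ± 0.184 FPKM (SD, n = 4). Of the 10 expressed genes in this list, 8 were highest in liver 2, against 22.0% of all expressed genes. In the lists below it was 3 of 8 other receptors, 4 of 10 genes listed as other ligands, 2 of 5 other Smads and 2 of 8 signal regulators.

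Other receptors of the superfamily were expressed in 8 of 11 cases. Endoglin (Eng), an endothelial coreceptor, was at 20.9, 25.4, 27.5 and 21.2 FPKM in livers 1 to 4 and exceeded Tgfbr2 in each. Bmpr1a had 6.66 ± 0.354 FPKM and Acvr1 5.84 ± 0.522 FPKM (each SD, n = 4), close to the level of Tgfbr1. Acvr1c was listed at 0 in 3 livers and at 0.00780 FPKM in liver 1, and Bmpr1b at 0 in 3 livers and at 0.0365 FPKM in liver 2. Bambi, which encodes a pseudoreceptor without a kinase domain, was at 1.70, 1.71, 1.63 and 1.00 FPKM in livers 1 to 4, with liver 4 below the others as for Tgfb3.

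In the list of other superfamily ligands, which also held the activin antagonist gene Fst (mean 1.39 FPKM), 10 of 12 genes were expressed. Several of the ligands exceeded Tgfb1. Inhbe and Inhbc, which encode activin E and C chains made by hepatocytes, had 40.0 ± 10.1 and 36.2 ± 4.67 FPKM (each SD, n = 4). Gdf15, a stress-induced ligand, was at 13.5, 20.2, 7.68 and 2.86 FPKM in livers 1 to 4. Its range was far wider than that of Tgfb1, with liver 4 lowest. Gdf2, encoding BMP9, had 7.83 ± 1.73 FPKM (SD, n = 4).

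All 5 other Smad genes were expressed. Smad1 and Smad5, the receptor-regulated Smads of the BMP branch, had 5.89 ± 0.639 and 4.48 ± 0.466 FPKM (each SD, n = 4). Their sum exceeded that of Smad2 and Smad3 by a ratio of 1.36, 1.81, 1.89 and 1.68 in livers 1 to 4. Smad9, of the same branch, was at 1.89, 3.30, 4.54 and 2.97 FPKM in livers 1 to 4, the widest spread of all Smads measured (SD 0.39 on the log2 scale). The inhibitory Smad7, which blocks the type I receptor, had 2.76 ± 0.268 FPKM, and Smad6, which acts mainly in the BMP branch, had 4.89 ± 1.18 FPKM (each SD, n = 4). Smad6 exceeded Smad7 in 4 of 4 livers.

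Signal regulators were expressed in 8 of 9 cases. Ppm1a, a phosphatase of Smad2 and Smad3, had 48.6 ± 4.78 FPKM and the corepressor gene Tgif1 13.7 ± 2.34 FPKM (each SD, n = 4). The ubiquitin ligase gene Smurf2 had 7.86 ± 1.00 FPKM (SD, n = 4). Skil, encoding the corepressor SnoN, was at 1.92, 2.21, 1.95 and 1.95 FPKM in livers 1 to 4, with liver 2 above the others.

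**Figure D4:**
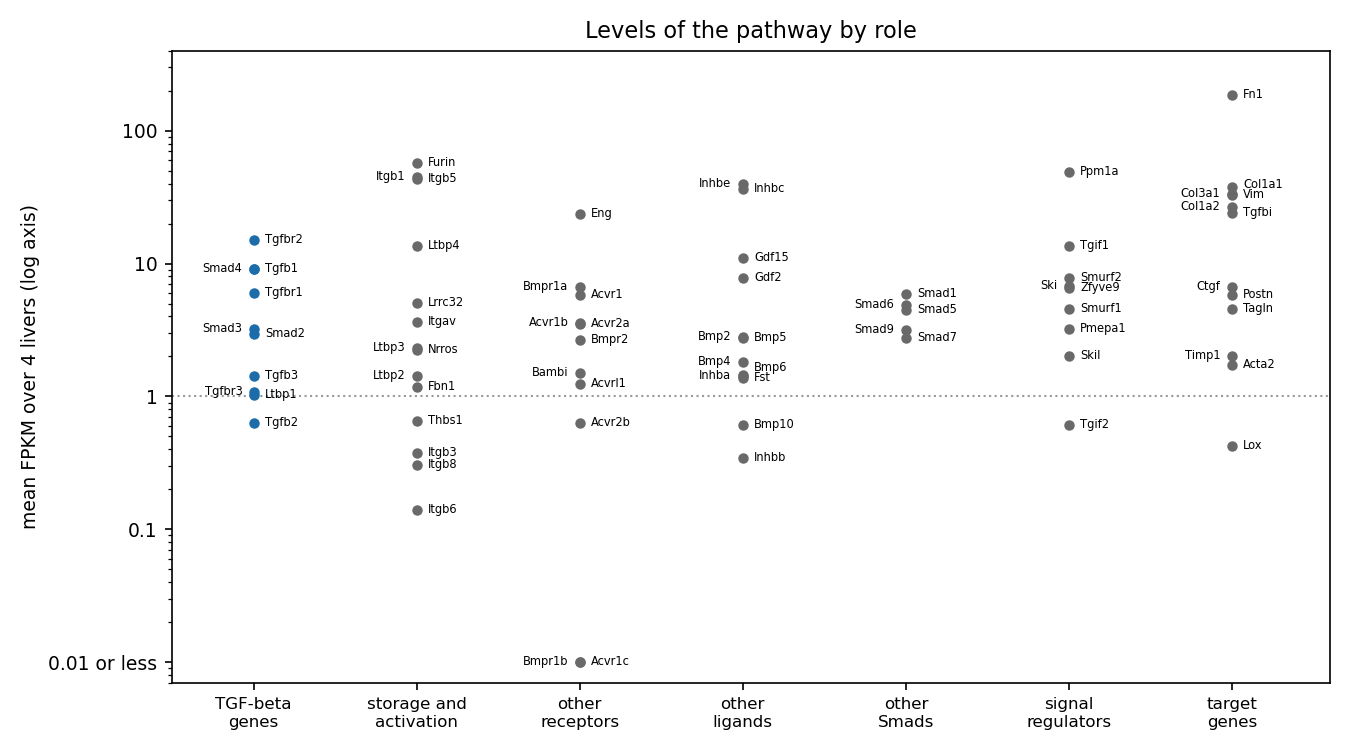
Mean FPKM over 4 livers (log axis) of the 10 genes (blue) and of the pathway genes by role (grey), with a dotted line at 1 FPKM; values under 0.01 are drawn at 0.01. Fn1 was highest, Itgb6 lay at 0.139 FPKM, and Bmpr1b and Acvr1c were near 0.

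Genes known as targets of TGF-beta were expressed in 11 of 12 cases. Fn1, encoding fibronectin, which hepatocytes also make for plasma, was the highest at 187 ± 10.1 FPKM (SD, n = 4), followed by Col1a1 (38.0 ± 7.23 FPKM) and Col3a1 (33.3 ± 5.67 FPKM). Of the 11 expressed targets, 9 were highest in liver 2, against 22.0% of expressed genes, and 8 were lowest in liver 3 as deposited, against 31.4%. Under either rescaling 5 were lowest in liver 3 and 5 in liver 4, since Col1a1, Col3a1 and Timp1 moved to liver 4. With median-ratio scaling, 29.1% of expressed genes were lowest in liver 3 and 25.1% in liver 4. Rescaled to the same total, the shares were 25.3% and 33.0%. Ctgf, a matricellular growth factor gene also known as Ccn2, was at 5.53, 8.89, 4.94 and 7.18 FPKM in livers 1 to 4. Postn, encoding periostin, was at 5.68, 8.69, 3.70 and 5.29 FPKM.

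The median deviation of the expressed targets from their gene means was 0.01, 0.26, -0.21 and -0.08 in livers 1 to 4, against 0.04 in liver 4 and between -0.02 and -0.01 in the other livers over all expressed genes. Tgfb1 did not follow this order, being 0.12 above its mean in liver 2 and at its highest as deposited in liver 4. Fn1 differed by 1.11-fold at most between livers, with values from 178 to 198 FPKM, while Col1a1, Col1a2 and Col3a1 were each highest in liver 2. The summed stellate, sinusoidal endothelial, cholangiocyte, T and NK cell, neutrophil and platelet markers were also highest in liver 2. Of these, only 1 T and NK cell, 2 neutrophil and 1 platelet marker averaged 1 FPKM or more. The erythroid sum was highest in liver 1, and the hepatocyte, macrophage, B cell and adipocyte sums in liver 4 as deposited. The part of any of these cells in the target levels was not tested.

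**Figure D5:**
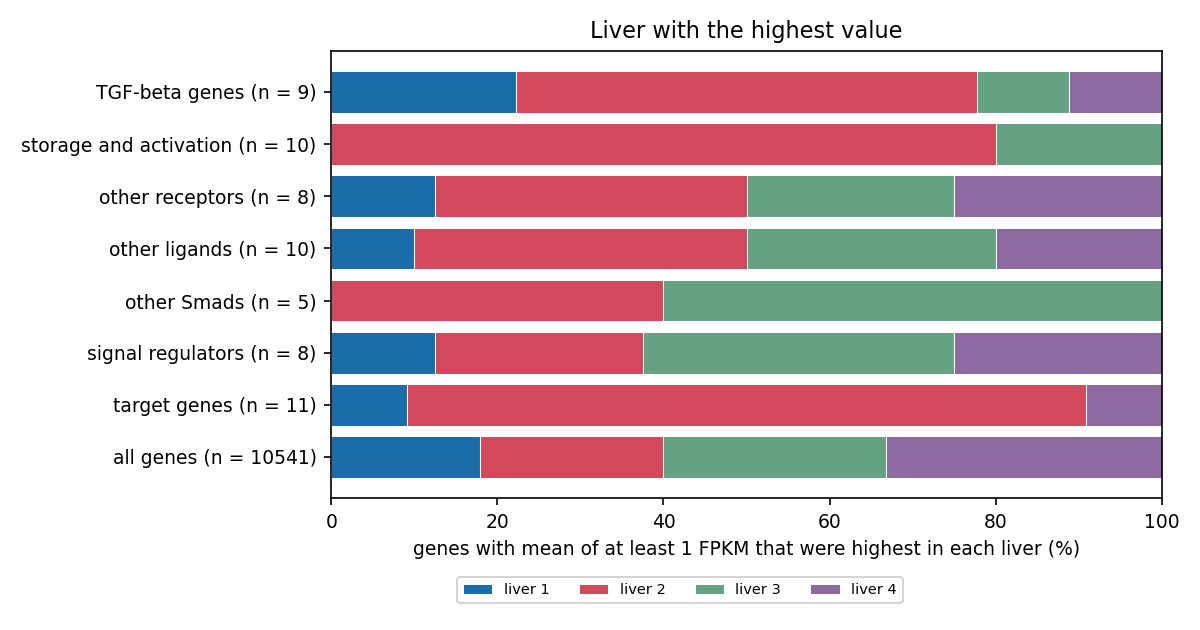
Share (%) of expressed genes whose highest value was in each liver (colours), for the TGF-beta genes, the pathway lists and all genes; n is the number of expressed genes. Liver 2 held 9 of 11 target genes and 5 of the 9 expressed TGF-beta genes, against 22.0% of all genes.

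The genes whose pattern over the 4 livers was most like that of Tgfb1 were Tmem53, Rab7 and Trappc2l, with root mean square differences in log2 deviation of 0.03, 0.03 and 0.04. Tmem53 was at 25.0, 32.7, 28.5 and 36.2 FPKM in livers 1 to 4. This was the order of livers of Tgfb1 as deposited, the values on which these genes were picked. Among 6537 genes averaging 5 FPKM or more, 301 differed from Tgfb1 by less than 0.1, and the median difference was 0.21.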

How the data were processed

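The deposited table gives 1 value per gene and liver, which was taken to be FPKM as the authors made it. The header names no unit, and this rests on the values and on the Cufflinks form of the identifiers. Per the submitters' processing notes, FastQC 0.10.1, Trim Galore 0.6.3, cutadapt, STAR 2.7.6a and Cufflinks 2.2.1 were used with build mm10; the annotation is not given in the sources used here. Per the labels, libraries were made from total RNA after poly(A) enrichment. Columns were matched to livers through the sample descriptions, with 0 left unmatched. Starts were raised by 1. Each span of the 10 genes overlapped the RefSeq gene and no other row.

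Depth was estimated from 8832 genes with 1 GENCODE vM21 transcript longer than 800 bases, with 200 bases subtracted from each length. In each liver, 186 to 258 of these genes had a value times length inside a fixed window taken to hold 1 fragment. Their median gave the depth, so the choice of window limits what the estimate can be. Fragment numbers and counting intervals are therefore approximate. Analysis used Python 3.11.15, numpy 2.4.6, pandas 2.3.3 and scipy 1.17.1, with a pseudocount of 1 FPKM. Dixon's gap ratio was tested on simulated data, and the permutation test and the adjustment on short example values. The depth estimate, the rescalings and the counting intervals were not tested in this way. Levels in pairs of genes were compared by exact sign-flip permutation, with Benjamini-Hochberg adjustment over 9 pairs. The alternatives were other pseudocounts, filters, 2 rescalings and leaving out each liver.

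The 10 genes and all lists were chosen with earlier results of these data known. Named genes are the 10, those of the role lists that had the highest means, were near 0 or encode direct partners, and the 3 most like Tgfb1. Bambi, Skil, Smad9, Gdf2, Thbs1, Ctgf and Postn were among those named after their values were seen. A gene of the target list is not reported here and was left out of its counts. In the marker lists, T and NK cell markers summed to 1.64 to 3.73, B cell markers to 2.69 to 4.04, cholangiocyte markers to 19.3 to 26.2, erythroid markers to 427 to 1076 and adipocyte markers to 0.609 to 4.49 FPKM; Lep, Plin1 and Retn were listed at 0.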

Additional observations from a re-analysis of the deposited data

Results flagged for a closer look

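Among the 10 genes, 2 had a liver whose gap to its nearest neighbour, divided by the range over all 4 livers on the log2(FPKM + 1) scale, was past Dixon's 95% limit for that many samples. Over all expressed genes this held for 5.46%, close to the 1 in 20 that chance gives. Tgfb3 in liver 4 had a ratio of 0.882, being lower than the others, and Smad3 in liver 1 a ratio of 0.839, being higher. Both were also past it on untransformed FPKM, at 0.862 and 0.848. Among the 52 expressed genes of the pathway lists, 2 were past the value: Bambi in liver 4, which was lower than the others (0.902), and Skil in liver 2, which was higher (0.885).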

How the results depend on the processing

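No paired analysis was possible because the livers form a single group, so that there are no groups to pair by liver number; the liver number paired genes within a liver only. Taken as shares of summed log2(FPKM + 1), the parts of Tgfb1, Tgfbr2 and Smad4 were 62.8%, 51.05% and 45.2%, smaller because the log scale compresses high values. The median SD of the 9 expressed genes was 0.064 with a pseudocount of 5, 0.17 rescaled to the same total and 0.14 with median-ratio scaling, and 0.11 to 0.13 when a liver was left out. That of all expressed genes was 0.19 with a pseudocount of 0.1, 0.11 with 5 and 0.14 with no filter, and 0.14 to 0.17 when a liver was left out. Rescaling to the same total multiplied the mean of each of the 10 genes by 1.87 to 1.89 and left 0 genes highest in liver 4, with 7 highest in liver 2; with median-ratio scaling it was 6. Over these scalings, 28.4% and 26.8% of expressed genes were highest in liver 2. The count of target genes highest in liver 2 was 9 under both scalings. Target genes lowest in liver 3 fell from 8 to 5 and those lowest in liver 4 rose from 2 to 5 under each. Of all expressed genes, 31.4% were lowest in liver 3 as deposited, 29.1% with median-ratio scaling and 25.3% rescaled to the same total. For liver 4 the shares were 18.1%, 25.1% and 33.0%. Of the 10 genes, those lowest in liver 4 were 7 rescaled to the same total and 6 with median-ratio scaling, against 3 as deposited; those lowest in liver 3 were 1 and 2, against 4, and those lowest in liver 2 were 1 and 1, against 2. With a threshold of 2 FPKM 6 of the 10 genes were expressed, and without liver 2 it was 7. All 9 pairs kept their direction under each pseudocount and without each liver. The counts of lowest values, those for liver 2 on leaving out livers, the target counts and the check of the gaps on other scales were chosen after seeing the data. Depth limits Tgfb2, Tgfb3, Tgfbr3 and Ltbp1 most when the longest annotated transcript is assumed; with the shortest, Smad2 had 58.0 to 65.8 estimated fragments per liver, fewer than Tgfbr3 and Ltbp1.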
